A study of Rattus norvegicus with 12 samples.

Results

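The transcripts described here are those of 10 genes of elastic fibres and their microfibrils in neonatal rat ventricular myocytes (NRVMs), the beating muscle cells of the newborn rat heart kept in primary culture. The genes were chosen by name, for the known place of their proteins in the fibre, and with earlier results of these data known. Counts and medians over them are therefore descriptions, not tests. All 10 were found among the 18483 genes measured and passed the filter on low counts. They are Eln, the fibrillin gene Fbn1, the fibulin genes Fbln1, Fbln2, Fbln5 and Efemp2 (fibulin-4), the microfibril-associated genes Mfap4 and Emilin1, and the cross-linking enzyme genes Lox and Loxl1. Cells from Sprague-Dawley neonates were transfected with the control siRNA (siNeg) or with 1 siRNA that targets Slc39a2 (siSlc39a2), the gene of a zinc importer of the ZIP family. Both were sequenced without and with PE (phenylephrine), an agonist of alpha1-adrenergic receptors that makes these cells hypertrophic, which the sample labels give as 36 h of treatment and the culture methods as a longer time. The groups without PE (siNeg and siSlc39a2) and those with it (siNeg PE and siSlc39a2 PE) had 3 biological replicates each, 12 samples in all. Each culture was transfected, so no group shows untransfected cells, and the myocytes were separated from other heart cells by density alone, so such cells may remain.

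An elastic fibre has a core of cross-linked elastin and a mantle of microfibrils. Cells secrete the soluble precursor tropoelastin, fibulins and other glycoproteins bring it to the microfibrils, and lysyl oxidases then join its lysines into a network that stretches and recoils. Microfibrils are built mainly of fibrillin and also hold latent TGF-beta through its binding proteins. In the heart and great vessels such fibres give recoil to the wall, and most of their proteins come from fibroblasts and smooth muscle cells.

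The promoters of 5 of the 10 genes (Fbn1, Fbln2, Fbln5, Efemp2 and Loxl1) were in the sequence table of RefSeq for the rat build GRCr8, each as 300 bases from 250 before to 50 after the annotated gene start. Those of Fbn1, Fbln2 and Fbln5 are shown because Fbln2 was the gene closest to Fbn1 in pattern over the samples, whereas Fbln5 also fell with PE. The Fbn1 window was chr3:133203341-133203640 on the minus strand, the Fbln2 window chr4:125261409-125261708 on the plus strand and the Fbln5 window chr6:126742657-126742956 on the minus strand. Capitals mark the GC box, GGGCGG on either strand.
Fbn1: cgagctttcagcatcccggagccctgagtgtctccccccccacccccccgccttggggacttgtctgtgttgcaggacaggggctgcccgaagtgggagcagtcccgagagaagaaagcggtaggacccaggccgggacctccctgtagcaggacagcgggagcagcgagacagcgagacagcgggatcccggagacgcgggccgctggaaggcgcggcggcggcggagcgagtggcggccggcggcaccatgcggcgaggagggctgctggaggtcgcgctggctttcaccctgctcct
Fbln2: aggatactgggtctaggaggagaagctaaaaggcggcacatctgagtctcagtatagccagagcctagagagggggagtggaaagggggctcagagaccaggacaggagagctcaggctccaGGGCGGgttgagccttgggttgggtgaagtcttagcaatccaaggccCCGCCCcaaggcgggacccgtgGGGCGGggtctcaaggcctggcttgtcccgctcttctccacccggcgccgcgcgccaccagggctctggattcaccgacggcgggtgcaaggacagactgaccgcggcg
Fbln5: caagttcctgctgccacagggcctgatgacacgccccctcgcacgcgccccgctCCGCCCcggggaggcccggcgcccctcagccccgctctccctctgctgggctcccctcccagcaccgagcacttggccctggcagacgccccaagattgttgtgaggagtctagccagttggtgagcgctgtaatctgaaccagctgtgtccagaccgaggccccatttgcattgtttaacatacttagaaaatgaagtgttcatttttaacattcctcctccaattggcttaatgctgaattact
The Fbn1 window held no GC box, the Fbln2 window 3 and the Fbln5 window 1. GC boxes were in 3 of the 5 windows and in 33.1% of all 33469 promoters of the table. The element CAGAC, bound by SMAD proteins, was in 4 of 5 windows and in 50.1% of all, and the E-box CANNTG was in 3 of 5 and in 72.1%. The TATA box TATAAA was in none of the 5 windows and in 14.2% of all. The AP-1 site TGANTCA and the CArG box were in none either, against 7.33% and 1.64% of all. Both strands were read for each motif, overlapping matches were each counted, and a match describes the letters only. The 5 windows were rich in G and C, with 70.7% in Fbn1, 64.7% in Fbln2, 58.3% in Fbln5, 71% in Efemp2 and 61% in Loxl1, where the median of all promoters was 51.7%.

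The libraries held between 24065539 and 28603854 expected counts, estimates of reads per gene in which a read that matches several genes is shared between them. Slc39a2 had between 50 and 59 counts in the siNeg samples and between 2 and 21 in the siSlc39a2 samples (log2 fold change -2.35, standard error 0.46, adjusted p = 9.80e-04 from edgeR), and with PE the knockdown was -2.33 (standard error 0.38, adjusted p = 2.24e-04). The hypertrophy marker Nppb rose with PE in siNeg cells by 5.19 on the log2 scale (adjusted p = 8.51e-10). Replicate 1 of siNeg and replicate 1 of siNeg PE stood apart, each with the lowest value of its group in 7 of the 10 genes, against 42.5% and 39.6% of all genes tested, and replicate 2 of siSlc39a2 PE was the lowest of its group in 6 of the 10, against 20.5%. Without that sample the counts past the threshold in siSlc39a2 PE against siNeg PE and against siSlc39a2, 6 and 1, were the same. Counts that lead the text are therefore also given without the samples numbered 1 of all 4 groups. Myocyte markers were present in every sample, with Tnnt2 (cardiac troponin T) at a mean of 5082 CPM in siNeg.

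Slc39a2 knockdown lowered most of these genes, and it did so both without and with PE. In siSlc39a2 against siNeg, 8 of the 10 genes were past the threshold (adjusted p below 0.05 and a log2 fold change beyond 1 in either direction), and all 8 were lower (Eln, Fbn1, Fbln1, Fbln2, Fbln5, Mfap4, Lox and Loxl1). Of all 13967 genes tested, 5.21% were lower at this threshold. Efemp2 was lower at the adjusted p alone, which made 9 of 10, against 26.4% of all genes, and the same 9 had no overlap between the groups, against 30.6% of all genes. The median log2 fold change of the 10 genes was -1.69, where that of all genes was -0.02. In siSlc39a2 PE against siNeg PE, 6 of the 10 genes were lower past the threshold (Eln, Fbn1, Fbln1, Fbln2, Fbln5 and Mfap4), against 5.58% of all genes, and 9 were lower at the adjusted p alone, against 28.1%. The groups did not overlap for 9 genes either, against 31.7% of all, and the median was -1.39 beside 0.01. Without the samples numbered 1, again 8 and 6 genes were past the threshold.

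The 10 genes varied in their response to PE. In siNeg PE against siNeg, Eln alone was past the threshold, where 2.8% of all genes were lower, and 6 genes were lower at the adjusted p alone (Eln, Fbln5, Efemp2, Mfap4, Emilin1 and Loxl1), against 25.7%. None of the 10 was higher at that p in the edgeR fit of all 12 samples, where 24% of all genes were. At an unadjusted p below 0.05 the one higher gene was Fbln1. Some alternative fits called Fbln1 higher at the adjusted p, and some did not call Emilin1 or Loxl1 lower. The median was -0.37 beside -0.01. Without the samples numbered 1, Mfap4 also passed the threshold, which made 2. In siSlc39a2 PE against siSlc39a2, Eln was again the one gene past the threshold, where 4.17% of all genes were lower. At the adjusted p alone 4 genes were lower (Eln, Fbln5, Efemp2 and Emilin1), against 29.3% of all genes, and 2 were higher (Fbln2 and Lox), against 30.7%. The interaction, the knockdown effect with PE less that without, passed an adjusted p below 0.05 in edgeR for Mfap4, while a larger value for Lox did not pass (adjusted p = 0.0841). This call was made in 3.61% of all genes, and in 1.73% with the same positive sign. The comparisons share samples with each other and are not independent.

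**Figure D1:**
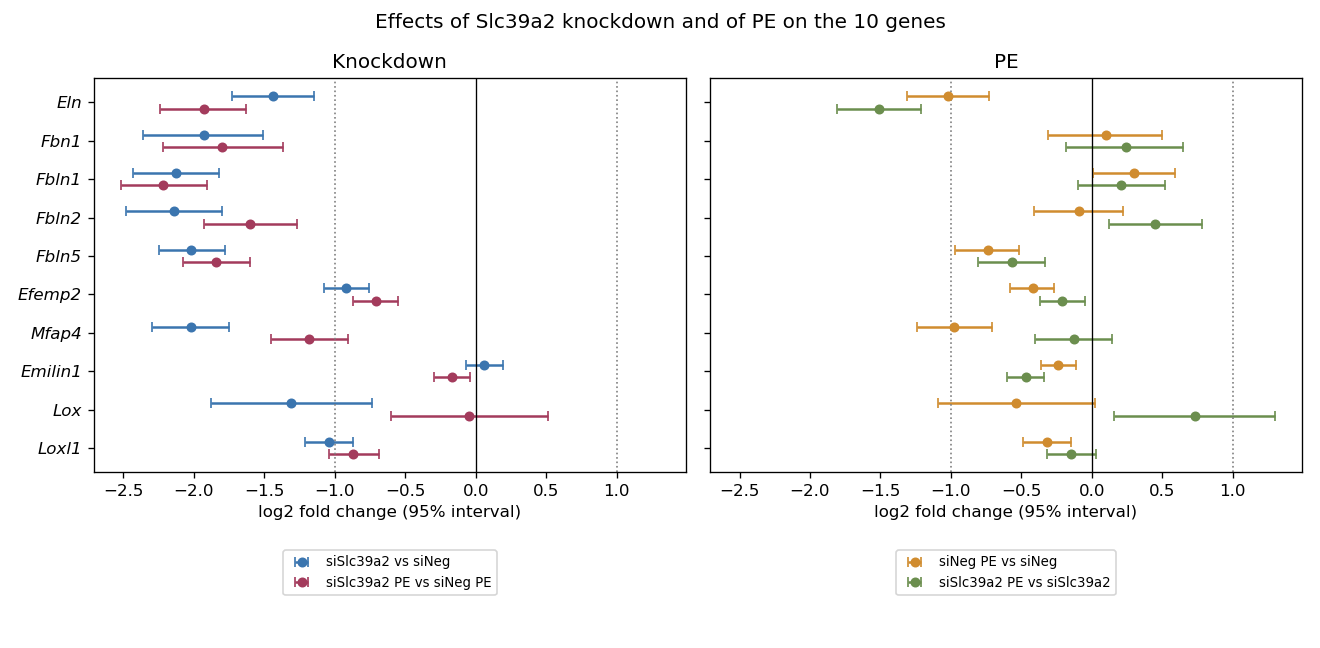
Log2 fold changes of the 10 genes (horizontal axis) by knockdown (left) and by PE (right), as edgeR estimates with 95% intervals from 3 samples a group and dotted lines at -1 and 1. On the left, all points lie below 0 but that of Emilin1 without PE (0.06), and on the right Eln has the lowest points (-1.02 and -1.51).

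Elastin (Eln, NCBI gene 25043), the core protein itself, fell with knockdown and with PE, and was lowest where both were applied. It had 597, 760 and 914 CPM (counts scaled to a common normalized library size) in the siNeg samples, 349, 397 and 375 in siNeg PE, 299, 281 and 257 in siSlc39a2, and 92.1, 88.1 and 113 in siSlc39a2 PE. The 4 groups did not overlap, in the descending order siNeg, siNeg PE, siSlc39a2, siSlc39a2 PE, and the means of the last 3 were 49.4%, 36.9% and 12.9% of the siNeg mean. On the log2 scale knockdown changed Eln by -1.44 (standard error 0.14, adjusted p = 2.36e-06) without PE and -1.93 (standard error 0.14, adjusted p = 1.80e-07) with PE. PE changed it by -1.02 (standard error 0.13, adjusted p = 8.64e-05) in siNeg cells and -1.51 (standard error 0.14, adjusted p = 2.40e-06) in knockdown cells. The difference between the knockdown effects, -0.49, had a 95% interval from -0.91 to -0.08 and an adjusted p of 0.213, and so did not pass. The call for PE in siNeg cells lay at the edge of the threshold. The log2 fold change was -0.86 without siNeg replicate 3 and -0.97 without siNeg PE replicate 1, and just short of -1 without siSlc39a2 replicate 3 or siSlc39a2 PE replicate 1.

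Fibrillin-1 (Fbn1, NCBI gene 83727), the main building block of microfibrils, fell with knockdown and had no detectable change with PE. It had 405, 629 and 643 CPM in siNeg, 451, 605 and 738 in siNeg PE, 146, 141 and 151 in siSlc39a2, and 150, 160 and 207 in siSlc39a2 PE. Samples fell into a high pair of groups without knockdown and a low pair with it, and within each pair the groups overlapped. The log2 fold change with knockdown was -1.93 (standard error 0.20, adjusted p = 4.47e-06) without PE and -1.80 (standard error 0.19, adjusted p = 7.99e-06) with PE. With PE it was 0.10 in siNeg cells (95% interval -0.31 to 0.50, adjusted p = 0.689) and 0.24 in knockdown cells (adjusted p = 0.301). The sample values of both groups without knockdown spread widely, from 405 to 738 CPM. The samples numbered 1 were the lowest of these groups, and without the samples numbered 1 of all groups the change with PE in knockdown cells was 0.32 (adjusted p = 0.0462).

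With knockdown without PE, 3 of the 4 fibulins had mean CPM between 22.7% and 24.7% of the siNeg mean, and Efemp2 had 52.8%. Fibulin-1 (Fbln1, NCBI gene 315191), a glycoprotein within the elastin core and of basement membranes, had 71.7, 78.5 and 92.4 CPM in siNeg, 98.8, 109 and 91 in siNeg PE, 20.5, 16.9 and 18.1 in siSlc39a2, and 20.6, 17.6 and 26 in siSlc39a2 PE. The pair of groups with knockdown lay far below the pair without, with log2 fold changes of -2.13 (standard error 0.14, adjusted p = 7.78e-08) and, with PE, -2.22 (standard error 0.14, adjusted p = 5.26e-08). Its change with PE in siNeg cells, 0.30 (95% interval 0.01 to 0.59), did not pass the adjusted p at 0.0744, but passed without siNeg replicate 3 (0.41, adjusted p = 0.0346) and without siSlc39a2 PE replicate 3 (0.30, adjusted p = 0.0313).

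Fibulin-2 (Fbln2, NCBI gene 282583), which binds fibrillin and elastin, had 155, 186 and 199 CPM in siNeg, 129, 172 and 205 in siNeg PE, 39.3, 40.4 and 42.9 in siSlc39a2, and 50.6, 51.2 and 65.3 in siSlc39a2 PE. Both groups without knockdown overlapped, and below them the siSlc39a2 PE samples all lay above the siSlc39a2 samples. Knockdown changed it by -2.14 (standard error 0.16, adjusted p = 2.03e-07) without PE and -1.60 (standard error 0.15, adjusted p = 2.61e-06) with PE. PE changed it by -0.09 in siNeg cells (95% interval -0.41 to 0.22, adjusted p = 0.611), and raised it by 0.45 in knockdown cells (standard error 0.15, adjusted p = 0.023). That rise was not past the adjusted p without siSlc39a2 PE replicate 3 (0.32, adjusted p = 0.106), siSlc39a2 replicate 1 (0.42, 0.0708) or siSlc39a2 replicate 2 (0.44, 0.0609). Under limma on log2(FPKM + 1) and log2(FPKM + 0.1) it was 0.37 and 0.40 and did not pass (adjusted p = 0.0657 and 0.0541).

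Fibulin-5 (Fbln5, NCBI gene 29158) and fibulin-4 (Efemp2, NCBI gene 293677) are the fibulins needed to assemble elastic fibres, the first by tethering tropoelastin to cells and microfibrils and the second by bringing lysyl oxidase to it. Fbln5 had 83.2, 90.1 and 92.3 CPM in siNeg, 51.5, 53.3 and 53.9 in siNeg PE, 22.4, 22.1 and 21.1 in siSlc39a2, and 12.8, 13.3 and 18.1 in siSlc39a2 PE. Its 4 groups did not overlap and stood in the same order as those of Eln. Knockdown changed it by -2.02 (standard error 0.11, adjusted p = 9.95e-09) and, with PE, by -1.84 (standard error 0.11, adjusted p = 3.09e-08). With PE it fell by 0.74 on the log2 scale in siNeg cells (standard error 0.10, adjusted p = 1.28e-04) and by 0.57 in knockdown cells (standard error 0.11, adjusted p = 7.96e-04).

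Efemp2 had 73.2, 75.3 and 74.8 CPM in siNeg, 49.9, 57.5 and 59.2 in siNeg PE, 39.7, 39.9 and 38.3 in siSlc39a2, and 35.9, 32.7 and 33.1 in siSlc39a2 PE. The order of the groups was that of Eln and Fbln5, again with no overlap, but the steps were smaller. Knockdown changed Efemp2 by -0.92 (standard error 0.07, adjusted p = 4.80e-07) and, with PE, by -0.71 (standard error 0.07, adjusted p = 5.24e-06), short of the threshold on fold change. PE changed it by -0.42 in siNeg cells (adjusted p = 5.63e-04) and by -0.21 in knockdown cells (adjusted p = 0.0242). The last of these did not pass without any one of siSlc39a2 replicate 1, siSlc39a2 replicate 2, siSlc39a2 PE replicate 2 and siSlc39a2 PE replicate 3, with values between -0.21 and -0.19. Under limma on log2(FPKM + 1) and log2(FPKM + 0.1) it was -0.19 and did not pass either (adjusted p = 0.0544 and 0.0526).

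**Figure D2:**
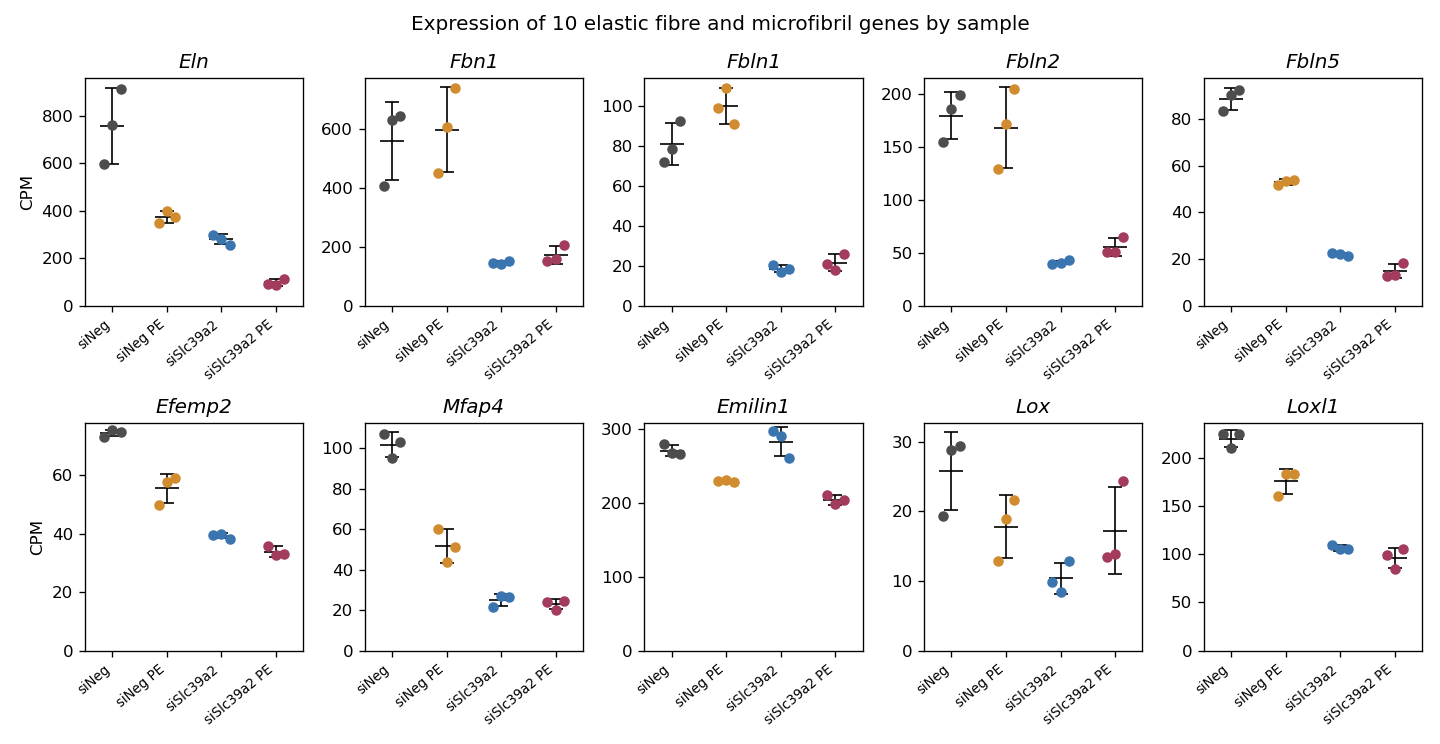
CPM of each of the 10 genes (vertical axes, each from 0) in the 12 samples, grouped along the horizontal axis by siRNA and PE, with points for samples and bars for the mean and SD of 3 samples. Eln steps down from a mean of 757 CPM in siNeg to 97.8 in siSlc39a2 PE, Fbn1 shows one high and one low pair of groups, and Emilin1 stays between 198 and 298 CPM.

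Mfap4 (NCBI gene 287382), a glycoprotein that binds tropoelastin and microfibrils, passed the test of a different knockdown effect with PE in edgeR. It had 107, 94.9 and 103 CPM in siNeg, 60.3, 43.6 and 51.3 in siNeg PE, 21.6, 26.8 and 26.6 in siSlc39a2, and 24, 20 and 24.5 in siSlc39a2 PE. Both groups with knockdown overlapped at the lowest level, and siNeg PE stood between them and siNeg. Knockdown changed it by -2.02 (standard error 0.13, adjusted p = 4.02e-08) without PE and by -1.18 (standard error 0.12, adjusted p = 6.53e-06) with PE. PE changed it by -0.98 in siNeg cells (standard error 0.12, adjusted p = 5.36e-05) and by -0.13 in knockdown cells (adjusted p = 0.395). The difference was 0.85 (standard error 0.17, 95% interval 0.47 to 1.22, adjusted p = 0.0179). Without siSlc39a2 replicate 1, the lowest sample of its group, it was 0.75 and its adjusted p was 0.0574. The fall with PE in siNeg cells was past the threshold on fold change without siNeg replicate 2 (-1.02) or siNeg PE replicate 1 (-1.10). Mfap4 counts were not whole in any of the 12 samples, so its reads were shared with other genes and its values are uncertain.

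Emilin1 (NCBI gene 298845), a glycoprotein at the border of elastin and microfibrils, was the gene of the 10 that did not pass as lower with knockdown alone. It had 280, 267 and 266 CPM in siNeg, 230, 231 and 229 in siNeg PE, 298, 290 and 261 in siSlc39a2, and 211, 198 and 204 in siSlc39a2 PE. Without PE the groups overlapped in CPM, whereas with PE the knockdown samples all lay below the siNeg samples. In FPKM, the level per length, the siSlc39a2 samples (76.1 to 84.6) lay above the siNeg samples (68.9 to 70.2). Knockdown changed it by 0.06 without PE (95% interval -0.07 to 0.19, adjusted p = 0.4) and by -0.17 with PE (standard error 0.06, adjusted p = 0.0244). The first value was 0.17 without siSlc39a2 replicate 3 and then passed (adjusted p = 0.0259). Under limma on log2(FPKM + 1) and log2(FPKM + 0.1) it was 0.13 and also passed (adjusted p = 0.0387 and 0.0421). The second value did not pass without siNeg PE replicate 2, siSlc39a2 PE replicate 2 or siSlc39a2 PE replicate 3. PE lowered Emilin1 by small steps, -0.24 in siNeg cells (adjusted p = 0.00591) and -0.47 in knockdown cells (adjusted p = 3.36e-05). The difference between the knockdown effects was -0.23 (adjusted p = 0.173), and -0.34 without siSlc39a2 replicate 3 (adjusted p = 0.0253).

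Lysyl oxidase (Lox, NCBI gene 24914) and its relative Loxl1 (NCBI gene 315714) oxidise lysines of elastin and collagen, the first step of cross-linking. Lox had the lowest level per length (FPKM) of the 10 genes in every group. In CPM it had 19.3, 28.8 and 29.3 CPM in siNeg, 12.8, 18.9 and 21.6 in siNeg PE, 9.89, 8.43 and 12.8 in siSlc39a2, and 13.5, 13.8 and 24.4 in siSlc39a2 PE. The siSlc39a2 samples lay below all siNeg samples and below all siSlc39a2 PE samples, whereas both groups with PE overlapped. Knockdown lowered Lox without PE (log2 fold change -1.31, standard error 0.26, adjusted p = 0.0012), while with PE the value was -0.05 (95% interval -0.60 to 0.51, adjusted p = 0.888). The difference, 1.27, had a 95% interval from 0.47 to 2.06 and an adjusted p of 0.0841, and it passed without siNeg replicate 1 (1.44, adjusted p = 0.0488). In knockdown cells PE raised Lox by 0.73 (standard error 0.26, adjusted p = 0.0293). That rise was not past the adjusted p without siSlc39a2 PE replicate 3 (0.40, adjusted p = 0.177), siSlc39a2 replicate 1 (0.70, 0.0822) or siSlc39a2 replicate 2 (0.60, 0.11). Under limma on log2(FPKM + 1) and log2(FPKM + 0.1) it was 0.35 and 0.46 and did not pass (adjusted p = 0.113 and 0.0953). In siNeg cells the change with PE was -0.54 (adjusted p = 0.0966), and -0.53 without siSlc39a2 PE replicate 3 (adjusted p = 0.0412).

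Loxl1 had 225, 210 and 225 CPM in siNeg, 161, 183 and 183 in siNeg PE, 110, 105 and 105 in siSlc39a2, and 99.2, 85.1 and 105 in siSlc39a2 PE. Its knockdown groups overlapped and lay below both others, which did not overlap each other. Knockdown changed it by -1.04 (standard error 0.08, adjusted p = 3.27e-07) and, with PE, by -0.87 (standard error 0.08, adjusted p = 1.81e-06). The first value was -0.98 without siSlc39a2 replicate 3 and then missed the threshold on fold change. PE lowered it in siNeg cells (log2 fold change -0.32, adjusted p = 0.00521), but without the samples numbered 1 the value was -0.24 (adjusted p = 0.056). In knockdown cells the change was -0.15 (adjusted p = 0.127), and -0.21 without siSlc39a2 PE replicate 3 (adjusted p = 0.0472). Loxl1 counts were not whole in any sample and those of Efemp2 in 1 sample, so reads were shared with other genes and the levels of Loxl1 are uncertain.

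The make-up of the set was read from FPKM, the level per length of transcript. FPKM were used as deposited, without the TMM normalization applied to the CPM and fold changes, so sums between groups rest on a different scaling. In siNeg, Eln led with a mean of 205 FPKM, followed by Loxl1 at 90, Emilin1 at 69.4 and Mfap4 at 69, and then by Fbn1 at 54.5. Emilin1 and Mfap4 overlapped, as did each neighbouring pair from Fbn1 down to Fbln1, and Lox was last at 5.16. In siSlc39a2 PE the order was different, with Emilin1 first at 56.2 FPKM, Loxl1 next at 43.1 and Eln in the place after them at 28.1, none of which overlapped the next. The summed FPKM of the 10 genes was 648 ± 75.6 (SD, n = 3) for siNeg, 488 ± 40.2 for siNeg PE, 306 ± 7.86 for siSlc39a2 and 217 ± 19.2 for siSlc39a2 PE. Eln held 31.4% ± 3.61 (SD, n = 3) of this sum for siNeg, 21.9% ± 0.962 for siNeg PE, 27.2% ± 1.03 for siSlc39a2 and 12.9% ± 0.727 for siSlc39a2 PE. The share thus differed without overlap in each comparison but that of siSlc39a2 with siNeg.

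The ratio of Eln to Fbn1, the core over the microfibril, differed between the groups. In FPKM it was 3.81 ± 0.393 (SD, n = 3) for siNeg, 1.81 ± 0.37 for siNeg PE, 5.32 ± 0.51 for siSlc39a2 and 1.59 ± 0.101 for siSlc39a2 PE. The groups without PE lay above those with it. Those without PE did not overlap, with siSlc39a2 (4.74 to 5.7) above siNeg (3.36 to 4.1), and those with PE did. Between the fibulins that assemble elastic fibres, the ratio of Fbln5 to Efemp2 went from 0.744 ± 0.0328 (SD, n = 3) for siNeg to 0.591 ± 0.039 for siNeg PE, 0.355 ± 0.00424 for siSlc39a2 and 0.272 ± 0.0581 for siSlc39a2 PE, with no overlap in any of the 4 comparisons. With 3 samples a group the exact permutation test (2-sided) cannot go below p = 0.1, which was reached in 22 of the 28 comparisons of such sums and ratios (adjusted p = 0.127), so none passes 0.05.

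**Figure D3:**
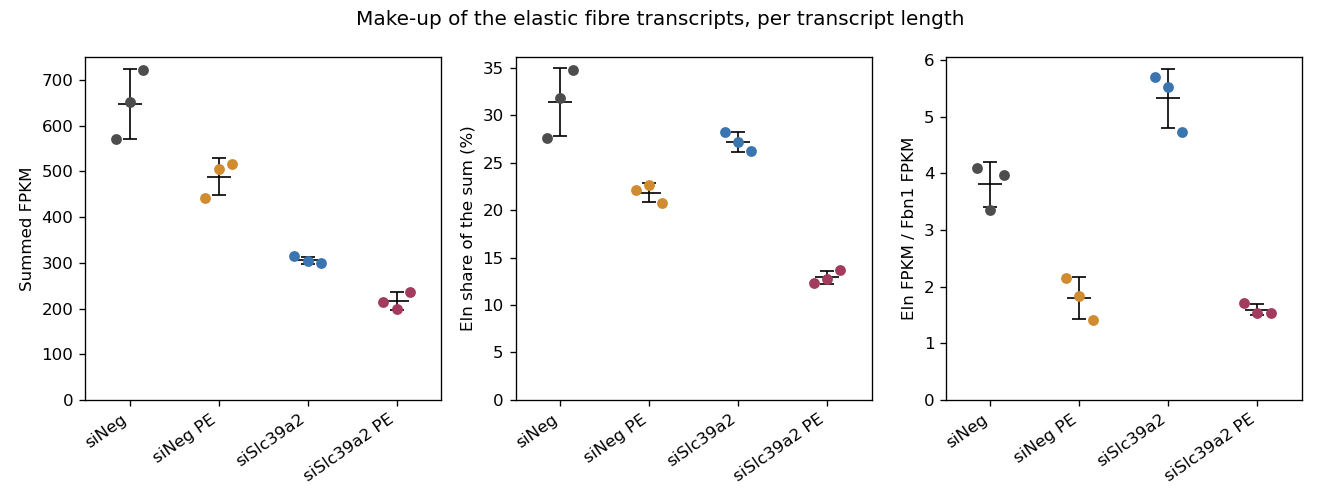
Summed FPKM of the 10 genes (left), the percent of that sum held by Eln (middle) and the ratio of Eln to Fbn1 in FPKM (right) for the 12 samples by group, with the mean and SD of 3 samples. The sum falls from 648 in siNeg to 217 in siSlc39a2 PE, and the ratio is lower in both PE groups (1.81 and 1.59) than in both others (3.81 and 5.32).

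Genes that work with these 10 were taken from a list of 42, also drawn up with earlier results known. Of these 40 were tested, and Mmrn1 and Vtn, with at most 1 and 2 counts in a sample, were not. In siSlc39a2 against siNeg, 14 of the 40 were lower past the threshold, against 5.21% of all genes, and none was higher, with a median log2 fold change of -0.84 beside -0.02 over all genes. At the adjusted p alone 27 were lower, against 26.4% of all genes, and 1 was higher. By role, lower genes past the threshold numbered 4 of 13 for other microfibril proteins and binders of latent TGF-beta, 2 of 3 for other fibulins, 2 of 3 for EMILIN relatives and multimerin, 0 of 6 for other cross-linking enzymes and their processing, 2 of 4 for proteoglycans, 1 of 5 for chaperones and receptors, and 3 of 6 for elastin-degrading proteases. The lists thus held lower genes on the side of assembly and on that of breakdown, and the cross-linking list held none at the threshold, although 3 of its 6 were lower at the adjusted p alone.

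Among partners with a mean log2 CPM above 1, Ltbp2 and Ltbp4 had the largest falls. Ltbp4, which ties latent TGF-beta to microfibrils and helps fibulins lay down elastin, had 208 ± 16.7 CPM (SD, n = 3) in siNeg and 32.9 ± 0.321 in siSlc39a2 (log2 fold change -2.66, standard error 0.09, adjusted p = 1.24e-10). Ltbp2, a microfibril protein of the same family, went from 185 ± 23.4 to 29.1 ± 1.99 CPM (log2 fold change -2.67, standard error 0.17, adjusted p = 4.29e-08). Efemp1 (fibulin-3) went from 29.9 ± 3.5 to 6.75 ± 2.11 CPM (log2 fold change -2.15). These 3 changes were as large as those of Fbln1 and Fbln2 or larger.

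In siSlc39a2 PE against siNeg PE, 15 of the 40 partner genes were lower past the threshold, against 5.58% of all genes, and 1 was higher, with a median of -0.73. Ltbp4 fell from 135 ± 11.5 CPM (SD, n = 3) to 24.4 ± 2.89 (log2 fold change -2.47, adjusted p = 3.40e-10) and Efemp1 from 24.1 ± 3.24 to 5.74 ± 1.43 (-2.07). Mmp2, a gelatinase that can also cut elastin, fell from 770 ± 2.59 to 210 ± 13.6 CPM (log2 fold change -1.87, standard error 0.06, adjusted p = 1.10e-10). The gene that rose was Loxl4, a further lysyl oxidase, from 2.59 ± 0.275 to 5.82 ± 1.1 CPM (log2 fold change 1.17, adjusted p = 6.95e-05), where 6.03% of all genes were higher at the threshold. In the same comparison Loxl1 was lower (-0.87).

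With PE in siNeg cells, 3 of the 40 partners were lower past the threshold, against 2.8% of all genes, and none was higher, with a median of -0.20. Ltbp2 fell to 73.6 ± 17.2 CPM (SD, n = 3; log2 fold change -1.33, standard error 0.16, adjusted p = 3.76e-05). Ctss, the elastin-cutting cathepsin S, fell from 3.02 ± 0.0498 to 1.35 ± 0.315 CPM (-1.16, adjusted p = 0.00111), and the remaining gene, Mfap5, was too low in counts for the naming rule (-2.27, adjusted p = 0.00729). In siSlc39a2 PE against siSlc39a2, 2 partners were higher past the threshold and 1 was lower. Of all 13967 genes tested, 1469 passed in either direction and 4.17% were lower. The interaction passed for 6 of the 40 with either sign, against 3.61% of all genes. It was positive for 5 of them, against 1.73% of all genes with that sign, and negative for 1. These 6 were named after their values were seen. Ltbp2 (1.33, adjusted p = 0.00587), Ltbp1 (0.79, 0.0166), Adamtsl5 (0.59, 0.0203), Emilin2 (0.78, 0.00513) and the integrin gene Itgb5 (0.64, 0.00125) had the sign of Mfap4, and Adamtsl2, which binds fibrillin, had the other (-0.75, 0.0168).

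Genes with the most similar pattern over the 12 samples were found by the root mean square difference of centred log2 CPM among 11748 genes, as a description. For Fbn1 they were Fbln2 (0.138), Col16a1 (0.164), a fibril-associated collagen, and Aebp1 (0.201), a collagen-binding protein of the matrix. For Eln they were Adhfe1 (0.262), Carmil3 (0.269) and Cacng6 (0.287), none of which is a matrix gene. For Lox they were Itga8 (0.224), an integrin chain, Adamts5 (0.242), a proteoglycan-cutting protease, and Gpm6b (0.261). The closest match of Fbn1 was thus another of the 10 genes, while the differences for Eln and Lox were larger.

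Most cells that make elastic fibres are not myocytes, and in these bulk samples fewer cells of a type and less RNA per cell cannot be told apart. The fibroblast markers were read as a pair of lists, 6 matrix genes and 8 genes outside the matrix, as a description that does not separate them either. All 6 matrix markers were lower at the adjusted p alone in siSlc39a2 against siNeg, where 26.4% of all genes were. Of these markers 5 were past the threshold, against 5.21% of all genes. The summed level was between 13777 and 18270 CPM in siNeg, 9052 and 11605 in siNeg PE, 5232 and 5535 in siSlc39a2, and 3463 and 4809 in siSlc39a2 PE. Col1a1, the main fibrillar collagen chain, had a mean of 10756 CPM in siNeg and 3351 in siSlc39a2.

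The summed level of the list outside the matrix showed no such steps, although single genes in the list changed in both directions. Its summed level was between 126 and 157 CPM in siNeg, 141 and 170 in siNeg PE, 146 and 154 in siSlc39a2, and 147 and 182 in siSlc39a2 PE, and these ranges overlapped. Of its 8 genes, Fap (log2 fold change -2.64, adjusted p = 2.65e-04) and Thy1 (-1.37, adjusted p = 2.88e-05) were lower in siSlc39a2 against siNeg, and Tcf21 (0.34, adjusted p = 0.00236) and Meox1 (0.64, adjusted p = 0.0443) were higher. Its most abundant genes, the receptors Ddr2 (54.4 ± 9.05 CPM in siNeg and 53 ± 2.34 in siSlc39a2, SD, n = 3) and Pdgfra (41.1 ± 5.37 and 44.7 ± 4.21), did not pass (adjusted p = 0.859 and 0.439). With PE, 2 of the 8 (Thy1, -1.16, and Fap, -1.46) were again lower past the threshold with knockdown, against 5.58% of all genes. In the same comparison Tcf21 (0.51, adjusted p = 1.17e-04) and Meox1 (0.90, adjusted p = 0.00477) were again higher. In siNeg PE against siNeg, 3 of the 8 (Tcf21, -0.66, Pdgfrl, -0.82, and Thy1, -0.62) were lower at the adjusted p, against 25.7% of all genes. Pdgfra was higher (0.74, adjusted p = 3.89e-04), where 24% of all genes were.

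**Figure D4:**
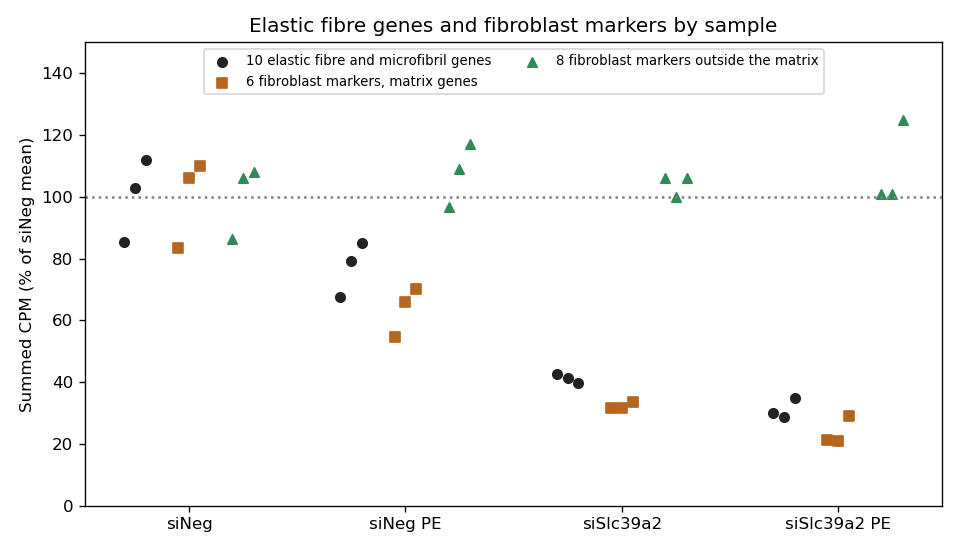
Summed CPM of the 10 genes (circles), of 6 fibroblast markers that are matrix genes (squares) and of 8 fibroblast markers outside the matrix (triangles) in each of the 12 samples, as a percent of the siNeg mean of the same list (vertical axis). In siSlc39a2 the circles lie between 39.6% and 42.7% and the squares between 31.6% and 33.4%, whereas the triangles lie between 100% and 106%.

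Summed marker levels of other cells also differed in some of the comparisons and overlapped in others, and some counts of called markers were near the shares of all genes. Of all genes tested, 5.21% were lower past the threshold in siSlc39a2 against siNeg and 26.4% at the adjusted p alone. In siNeg PE against siNeg these shares were 2.8% and 25.7%. The smooth muscle and pericyte list, whose cells also make elastin, had a summed level between 2561 and 2668 CPM in siNeg, 1725 and 2135 in siNeg PE, 1084 and 1156 in siSlc39a2, and 1718 and 1838 in siSlc39a2 PE. All 8 of these genes were lower in siSlc39a2 against siNeg at the adjusted p, 3 past the threshold. In siSlc39a2 PE against siNeg PE 1 was lower at the adjusted p, where 28.1% of all genes were, and 1 was higher. In siSlc39a2 PE against siSlc39a2, 4 of the 8 were higher at the adjusted p, against 30.7% of all genes, and 3 were lower, against 29.3%. Of its 2 most abundant genes, Acta2 was among the higher (467 and 845 CPM on average without and with PE) and Tagln among the lower (270 and 230 CPM). The interaction passed for 5 of the 8, each with a positive sign, against 1.73% of all genes with that sign. Epicardial markers were between 46.3 and 58.7 CPM in siNeg and 25.7 and 30.2 in siSlc39a2 (3 of 5 lower past the threshold), and macrophage markers between 88 and 124 and between 46.1 and 58.2 (2 of 7 tested). With PE in siNeg cells these lists were also at lower levels, between 31.4 and 39.4 CPM (1 of 5 past the threshold) and between 42.7 and 56.5 (1 of 7). In siSlc39a2 PE they were between 22.4 and 27.9 CPM and between 34.6 and 41. Endothelial markers were between 25.4 and 28.1 CPM in siNeg and 20.4 and 22.9 in siSlc39a2 (1 of 7 tested). With PE they were between 22.5 and 30.5 in siNeg PE (2 of 7) and 22.2 and 26 in siSlc39a2 PE. Myocyte markers were between 31273 and 31945 CPM in siNeg, 23456 and 25415 in siNeg PE, 22193 and 23078 in siSlc39a2, and 18428 and 19594 in siSlc39a2 PE. Against siNeg, 1 of 8 was past the threshold with knockdown and 0 with PE. At the adjusted p, 4 were lower with knockdown, and with PE 3 were lower and 1 was higher. With knockdown Myh6 fell from a mean of 15858 to 7407 CPM (log2 fold change -1.10). Tnnt2 had 5082 ± 675 CPM in siNeg and 5366 ± 182 in siSlc39a2 (SD, n = 3). No marker of any list was at 0 in all samples, and the part of these cells in the values of the 10 genes was not tested.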

How the data were processed

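RNA-seq of 12 NRVM samples in 4 groups was analysed from processed values. The authors deposited expected counts per gene, not normalized, of which 78.7% were whole numbers. The authors also deposited FPKM values of the same 18483 genes. The submitters' processing notes name HISAT, Bowtie2 and the build Rnor_6.0, without tool versions.

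The members, gene lists and tests were chosen with earlier results of these data known. Expected counts were rounded, filtered with the filterByExpr function (edgeR 4.0.16, R 4.3.3), leaving 13967 genes, and normalized by TMM. All 12 samples were fitted in one model of the 4 groups with 8 residual degrees of freedom. Groups were compared by the quasi-likelihood test of edgeR with Benjamini-Hochberg adjustment over all genes tested. The limma fit of the study's methods was an alternative, since counts were at hand. CPM here are counts scaled to the TMM-normalized library size. A prior count of 2 was added for log2 values.

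Total expected counts were between 24065539 and 28603854. No pair of replicates was as alike as counting noise allows (chi-square over its degrees of freedom 4.67 to 33.8). Alternatives were DESeq2 1.42.0, RLE size factors, no filter, the compared groups alone, the replicate block, limma 3.58.1 after quantile normalization on log2(FPKM + 1) and log2(FPKM + 0.1), and each replicate left out. Fits were tested on simulated data.

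Named genes were the 10 members, up to 3 partner genes a side past the threshold in each of the knockdown comparisons and in siNeg PE against siNeg, with a mean log2 CPM above 1, the 3 genes most alike to Eln, Fbn1 and Lox, and the 2 most abundant genes of each marker list. Names outside this rule are Mfap5, the 6 partners of the interaction, and Fap, Thy1, Tcf21, Meox1 and Pdgfrl, which were named after their values were seen.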

Additional observations from a re-analysis of the deposited data

Results flagged for a closer look

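The knockdown effect on Mfap4 differed between cells without and with PE, the one such call among the 10 genes in edgeR at the adjusted p. Lox had a larger difference with a wider interval (1.27, 95% interval 0.47 to 2.06, adjusted p = 0.0841), and alternatives also called Lox, Fbln2 or Emilin1. For Mfap4 the difference was 0.85 on the log2 scale (adjusted p = 0.0179 from the quasi-likelihood test of edgeR). It was between 0.73 and 0.97 over the alternatives, with an adjusted p between 4.34e-04 and 0.0574. It did not pass without siSlc39a2 replicate 1. The mean CPM of Mfap4 in siNeg PE, siSlc39a2 and siSlc39a2 PE were 50.9%, 24.6% and 22.5% of the siNeg mean. Its counts were not whole in any of the 12 samples, and the part of reads shared with other genes was not tested.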

How the results depend on the processing

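All 10 genes were measured at 8.43 CPM or more in every sample. Each of the 9 genes that were lower with knockdown alone was lower under every alternative. The count of genes past the threshold for siSlc39a2 PE against siNeg PE was 6 throughout, that for siSlc39a2 PE against siSlc39a2 was 1, and that for siSlc39a2 against siNeg was between 7 and 8, with Loxl1 at -0.96 and -0.97 under limma on log2(FPKM + 1) and log2(FPKM + 0.1).

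For siNeg PE against siNeg, the count of 1 (Eln) was 0 without a filter, 0 on the groups alone and 0 under limma with either pseudocount, where Eln had -0.84 and -0.85. It was 2 without the samples numbered 1 in all groups, an alternative chosen after seeing the data. With each replicate left out it was between 0 and 2. At the adjusted p alone, limma with pseudocounts of 1 and 0.1 did not call Emilin1 (-0.11 in both, adjusted p = 0.0743 and 0.0798). Loxl1 also missed there (-0.21 and -0.22, adjusted p = 0.0682 and 0.0693). Both limma fits called Lox lower (-0.52 and -0.62, adjusted p = 0.034 and 0.0391) and Fbln1 higher (0.40 and 0.41, adjusted p = 0.0216 and 0.0256). Fbln1 also passed in edgeR on the groups alone (0.32, adjusted p = 0.0339). The median of the 10 genes was -0.26 and -0.27 under limma, and with each replicate left out it was between -0.41 and -0.30. In siSlc39a2 against siNeg the median was -1.56 under limma on log2(FPKM + 1), and between -1.78 and -1.55 with each replicate left out.

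For the interaction, the count of 1 (Mfap4) was 2 with DESeq2 (Lox added, 1.25, adjusted p = 0.0148) and 2 under limma with either pseudocount (Emilin1 added). With each replicate left out it was between 0 and 2. The replicate numbers in the labels did not pair the samples by the rule used, since the correlations of same-numbered deviations were between -0.0904 and 0.32. With the replicate block the count was 3, with Fbln2 (0.55, adjusted p = 0.0199) and Lox (1.25, adjusted p = 0.00507) added, and the block changed no other call past the threshold, while Lox with PE in siNeg cells passed the adjusted p alone (-0.55, adjusted p = 0.00826).

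Signs turned only in values that did not pass. The interaction of Fbln5 was -0.05 under limma on log2(FPKM + 0.1), and that of Fbln1 was 0.07 without the samples numbered 1. With each replicate left out, the interaction was between -0.03 and 0.33 for Fbn1, between -0.26 and 0.03 for Fbln1, and between -0.00 and 0.24 for Fbln5. The change with PE in siNeg cells was between -0.09 and 0.26 for Fbn1 and between -0.26 and 0.07 for Fbln2, and that of Lox with knockdown in PE-treated cells was between -0.38 and 0.12.

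Over all genes, the count past the threshold in siSlc39a2 against siNeg was 1366 in edgeR and 612 under limma on log2(FPKM + 1). For siNeg PE against siNeg these were 922 and 288, for siSlc39a2 PE against siNeg PE 1621 and 674, and for siSlc39a2 PE against siSlc39a2 1469 and 584. The interaction passed in 504 genes in edgeR, 806 in DESeq2, 1053 with the replicate block and 889 under limma on log2(FPKM + 1). The cause of these differences was not tested.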
